A study of Mus musculus with 21 samples.

Results

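Ubiquitin E2 conjugating enzymes are described here in AGRP and POMC neurons of fed and food-deprived (FD) mice. The members are the genes of the deposited count and TPM tables whose symbol is Ube2 followed by a letter, an optional digit and an optional further letter, and this rule took 34 of 35266 genes. The tables hold 21 RNA-Seq libraries, each made from the fluorescent neurons of 1 male mouse, with 5 fed and 6 FD mice for AGRP neurons and 5 fed and 5 FD mice for POMC neurons. AGRP neurons were picked by hand from the arcuate nucleus of NPY-hrGFP mice, and POMC neurons from Pomc-GFP mice (a topazFP reporter in the study's methods), both strains being on the C57BL/6J background. The cells were thus chosen by the activity of the *Npy* or *Pomc* promoter, and a library is a mixture of the reporter-carrying cells picked from 1 mouse. Fed mice had free access to food, FD mice had only water for 24 hours, and every mouse was moved to a fresh cage at the start of that period. Ages were postnatal day 46 to 55 for fed and 47 to 55 for FD AGRP mice, and 51 to 56 for fed and 54 to 56 for FD POMC mice.

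Ubiquitin is attached to proteins in a relay. An E1 enzyme activates it, an E2 enzyme carries it on a cysteine, and an E3 ligase brings the E2 to the protein that is to be marked. The E2 enzyme often sets the kind of chain that is built, such as lysine 48 chains that send proteins to the proteasome or lysine 63 chains used in signalling and DNA repair. Some E2 enzymes sit in or at the membrane of the endoplasmic reticulum (ER) and serve ER-associated degradation, which removes misfolded secretory proteins, a load that is large in neurons that secrete peptides such as AGRP and POMC neurons. The label of the group holds for most members but not for all of them. *Ube2m* and *Ube2f* carry NEDD8, *Ube2l6* carries ISG15, and *Ube2v1* and *Ube2v2* are E2 variants without the active cysteine that work with *Ube2n*.

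Gene counts per library ranged from 9822298 to 37663979, and 3 counts, taken as the floor, corresponded to 0.0797 to 0.305 CPM (counts scaled to library size). *Agrp* averaged 3455 TPM in fed AGRP against 15.5 TPM in fed POMC libraries, and *Pomc* 43.5 against 16029 TPM, so the libraries carried the defining genes of their labels. Of 16 markers of astrocytes, oligodendrocytes, microglia and endothelial cells, each group had 2 at 0 in all of its libraries and 10 to 12 with a mean under 1 TPM. Their summed level was 28.4 to 45.5 TPM in FD and 36.5 to 54.7 TPM in fed AGRP libraries, and 25.5 to 55.8 TPM in FD and 31.0 to 40.2 TPM in fed POMC libraries. Of the 11 markers that could be tested, 1 (*Aldh1l1*, an astrocyte gene) was called between FD and fed AGRP neurons and 0 between FD and fed POMC neurons by edgeR, and its part in the results was not tested. Spike-in RNA was added at 1 µl, at 10 µl or in proportion to the sorted cells. These sets were inferred from the volume and cell number of each library. AGRP FD replicate 2, with 1 µl and 50 cells, fits both the 1 µl and the cell-number set and was placed in the latter. AGRP fed replicate 5 and FD replicate 3 received another spike-in mix, which was not modelled. With this placing, the younger AGRP mice (day 46 to 47, 3 FD and 2 fed) were exactly the AGRP mice of the cell-number set. Among POMC mice the 10 µl set was FD only and the cell-number set fed only.

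Of the 34 members, 30 had over 1 CPM in at least 3 libraries and entered the tests, which covered 16513 genes in all. The summed TPM of all members lay close together in the 4 groups. It averaged 2627 ± 109 TPM in fed AGRP (SD, n = 5), 2655 ± 91.7 in FD AGRP (n = 6), 2604 ± 219 in fed POMC (n = 5) and 2785 ± 129 TPM in FD POMC neurons (n = 5), and the single libraries lay between 2307 and 2941 TPM. In normalized CPM, which are counts scaled to library sizes by TMM, the 30 members summed to 2196 ± 111 in fed and 2727 ± 343 in FD AGRP neurons, and to 2465 ± 92.4 in fed and 2467 ± 63.4 in FD POMC neurons. The AGRP difference in the sum thus depended on the scale, and on the TPM scale the median of all genes tested was lower in FD than in fed AGRP neurons (−0.27 as a log2 ratio of means).

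TPM are counts divided by the length of the gene, so they allow levels to be compared between genes. *Ube2b*, a Rad6-type enzyme that also acts on histones, had the highest mean level over all 21 libraries, 325 ± 59.6 TPM (SD). It was followed by *Ube2d3*, a partner of many E3 ligases, at 262 ± 37.6 TPM, and by the ER enzyme *Ube2j1* at 262 ± 71.4 TPM. *Ube2k*, which builds lysine 48 chains, averaged 156 ± 32.2 TPM, and *Ube2r2*, a partner of cullin-RING ligases, 152 ± 31.6 TPM. These 5 genes held 43.4% of the family's TPM. The order was loose, since only 4 of 33 neighbouring pairs were farther apart than the larger of their SDs across libraries, namely *Ube2b* and *Ube2d3*, *Ube2j1* and *Ube2k*, *Ube2j2* and *Ube2f*, and *Ube2f* and *Ube2v1*. It also differed between groups, since in FD AGRP libraries *Ube2j1* was at 315, *Ube2d3* at 286 and *Ube2b* at 278 TPM, and in FD POMC libraries *Ube2b* was at 320 and *Ube2j1* at 317 TPM. *Ube2g2* stood at rank 22 with 38.2 ± 13.4 TPM.

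At the lower end, *Ube2c*, the initiating E2 of the anaphase promoting complex, averaged 1.23 TPM and had a count in 16 libraries. *Ube2d2b* averaged 1.11 TPM and *Ube2t*, an enzyme of the Fanconi anaemia repair pathway, 0.827 TPM, and each passed 1 CPM in only 2 libraries. *Ube2u* had counts in 1 library, 4 in all. *Ube2d4* had 0 counts in every library, which allows up to the floor of 3 counts in each. The last 4 of these did not pass the filter and were not tested.

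**Figure D1:**
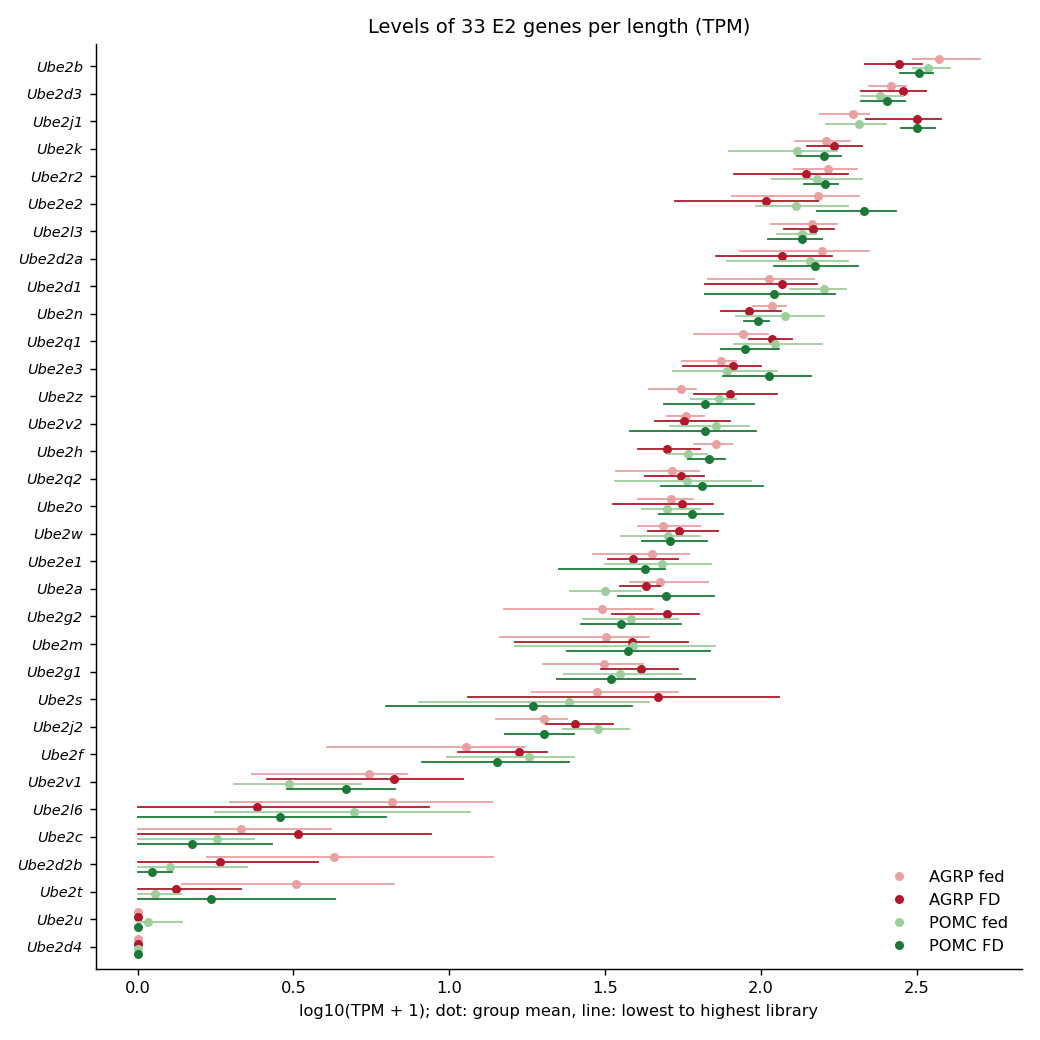
Levels of 33 of the 34 E2 genes, as log10(TPM + 1) on the horizontal axis, with a dot for the mean of each group and a line from its lowest to its highest library. *Ube2b*, *Ube2d3* and *Ube2j1* stand at the top, *Ube2d4* is at 0 throughout, and for *Ube2j1* both FD means lie to the right of both fed means.

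The main question of the design is how AGRP neurons respond to food deprivation. In AGRP neurons, 3 of the 30 members tested were higher in FD than in fed mice and 0 were lower: *Ube2j1*, *Ube2z* and *Ube2q1* (q under 0.05, where q is the Benjamini-Hochberg adjusted p of the edgeR quasi-likelihood test over all 16513 genes tested). That share, 10%, is close to the background, because 10.3% of all genes tested were called in this comparison and 5.87% were called higher. The count by itself therefore does not set the family apart. Among the 8200 genes with a group mean over 20 CPM, 17.2% were called. At an unadjusted p under 0.05 there were 9 members, all higher in FD, against 22.3% of all genes tested. The study's criteria for differential expression also ask for a change of more than 1 on the log2 scale and for a group mean over 20 CPM. Applied to the edgeR fit, they were met by 0 members and by 4.46% of all genes tested. By limma-voom, the test of the study, *Ube2g2* met them (log2 fold change 1.07, q = 0.0384, FD mean 34.4 normalized CPM). From these same libraries, the paper already names *Ube2j1*, *Ube2q1*, *Ube2z* and *Ube2g2* as raised in FD AGRP neurons. The edgeR calls are thus not independent of that report, and they leave out *Ube2g2*. Considering all 30 members, 25 had a positive fold change and 5 a negative one. Of all genes tested 48.5% were positive, and of those with a group mean over 20 CPM 57.6%. The median log2 fold change of the members was 0.37, compared with −0.02 over all genes tested and 0.09 over genes with a group mean over 20 CPM. By the ratio of mean TPM, 19 of 30 members were higher. In libraries made from a pool of cells, a change in level per cell and a change in the share of cells that express the gene cannot be told apart.

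*Ube2j1* (ENSMUSG00000028277, chromosome 4, 33031416 to 33052363 in mm10) encodes a tail-anchored E2 of the ER membrane. Its normalized CPM were 177, 237, 152, 206 and 225 in the fed AGRP libraries, in the order of their replicate numbers. In the 6 FD AGRP libraries they ran from 228 to 479 with a median of 396. All but 1 of the FD libraries lay above every fed library, the exception being FD replicate 1 at 228. The mean rose from 199 ± 34.7 (SD, n = 5) to 383 ± 98.5 (n = 6), which is 1.92-fold or 0.94 on the log2 scale (standard error 0.17, q = 0.000307).

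*Ube2g2* (ENSMUSG00000009293, chromosome 10, 77622275 to 77645993) encodes a soluble E2 that is recruited to the ER by *Aup1*. It gave 16.3, 8.70, 15.3, 20.2 and 25.8 normalized CPM in the fed and 20.9 to 49.6 (median 34.2) in the FD AGRP libraries. The FD values were mostly higher, but 2 of them lay within the fed range. Its log2 fold change of 0.99 (standard error 0.34) was the largest among members with a mean over 20 CPM, yet it missed the threshold at q = 0.0577. The call depended on the method, since q was under 0.05 in 4 of the 10 other fits, among them 0.0384 by limma-voom and 0.0251 by DESeq2, and also without fed replicate 5 (0.0377), FD replicate 1 (0.0396) or FD replicate 6 (0.0395).

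*Ube2z* (ENSMUSG00000014349, chromosome 11, 96047432 to 96065388) encodes an E2 that is charged by the E1 enzyme *Uba6*, not by the common E1 *Uba1*. Its normalized CPM were 61.2, 74.5, 60.5, 48.1 and 66.9 in fed and 76.6 to 164 (median 94.2) in FD AGRP libraries. Every FD library was above every fed library, and it was the only one of the 30 members without overlap, against 7.65% of all genes tested. The log2 fold change was 0.80 (standard error 0.22, q = 0.0182). *Ube2z* was no longer called without fed replicate 4 (q = 0.0606), FD replicate 2 (0.0639) or FD replicate 4 (0.0532), or when sorted cells entered the fit as a covariate (0.0644). Their number was 50 to 181 in FD and 87 to 214 in fed AGRP libraries.

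*Ube2q1* (ENSMUSG00000042572, chromosome 3, 89773609 to 89783997) encodes an E2 with a long N-terminal extension. It stood at 85.8, 65.3, 52.1, 83.5 and 92.5 normalized CPM in fed and at 83.0 to 141 (median 117) in FD AGRP libraries. FD replicate 1 was again the lowest of its group and fell within the fed range. The log2 fold change of 0.58 (standard error 0.19, q = 0.0472) was close to the threshold, and q was over 0.05 in 6 of the 10 other fits. It was also over 0.05 without any 1 of fed replicates 1 to 4 (0.0581, 0.117, 0.158 and 0.0653) or FD replicates 2 to 5 (0.110, 0.0830, 0.0643 and 0.0854).

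Since the AGRP libraries came from 2 age cohorts, the younger of which was also a spike-in set of its own as placed here, the changes were recomputed within each. *Ube2j1* was higher by 1.02 on the log2 scale in the older cohort (3 FD and 3 fed) and by 0.83 in the younger cohort (3 FD and 2 fed). For *Ube2g2* these values were 1.36 and 0.57, for *Ube2z* 0.64 and 1.01, and for *Ube2q1* 0.71 and 0.40. All 4 genes were thus higher in FD mice in both cohorts. Over the 30 members the median was 0.37 in the older cohort, with 22 higher, and 0.17 in the younger cohort, with 21 higher.

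**Figure D2:**
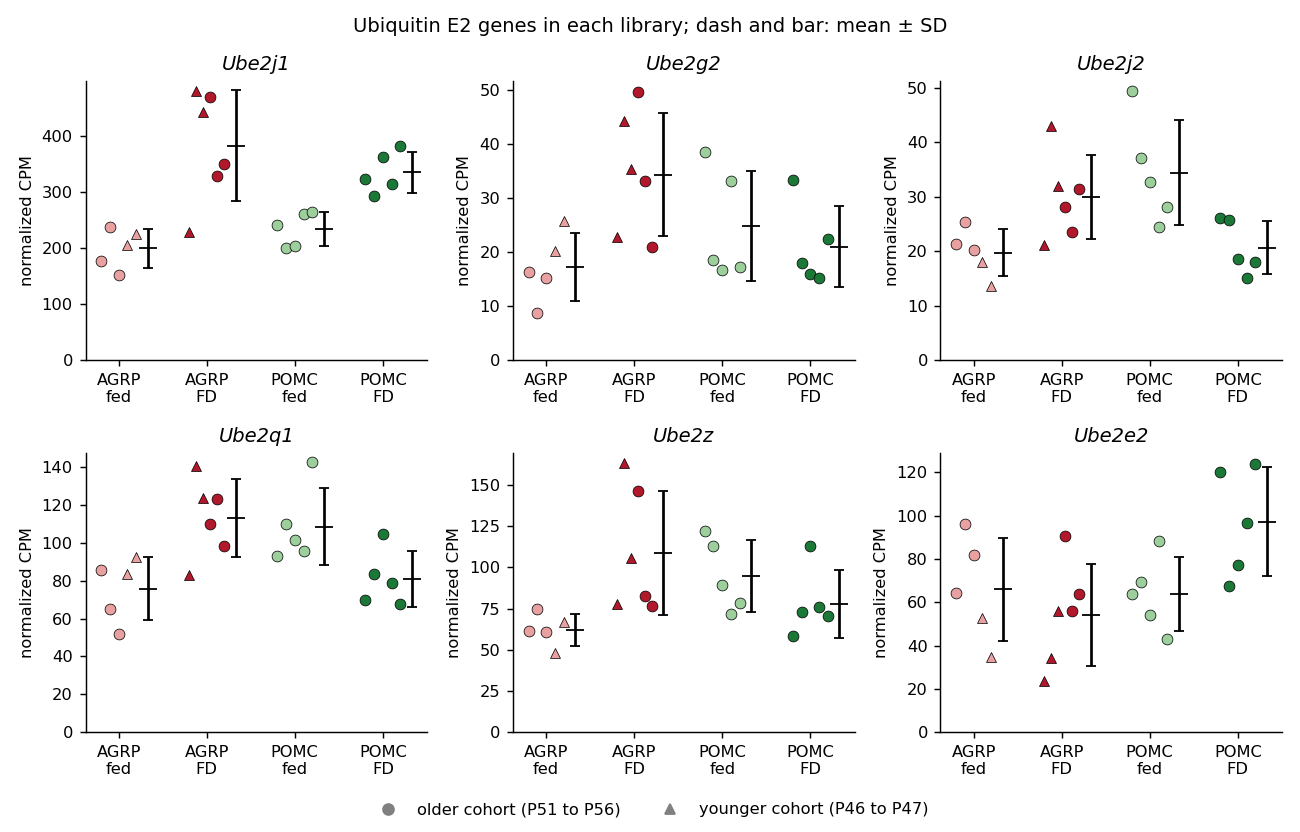
Normalized CPM of 6 E2 genes in each library (vertical axis, starting at 0) by group, with circles for the older and triangles for the younger cohort and a dash with a bar for the mean ± SD of the group. By group mean, *Ube2j1* is higher in FD than fed mice in both cell types. The means of *Ube2j2*, *Ube2q1* and *Ube2z* are higher in FD AGRP and lower in FD POMC libraries than in the fed ones. Of these differences, only those of *Ube2j1*, *Ube2q1* and *Ube2z* in AGRP neurons passed the test.

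The 250 bases upstream of the start sites are shown for the 3 genes called higher in FD AGRP neurons. Whether these genes vary together was not tested. They are taken from RefSeq on GRCm38.p6, the same assembly as mm10, and are written 5′ to 3′ on the strand of the gene. Capitals mark the matches to 6 short motifs of stress, cAMP and clock factors that were searched on both strands. The windows were chr4:33031130-33031379 (plus strand) for *Ube2j1*, chr3:89773359-89773608 (plus strand) for *Ube2q1* and chr11:96065365-96065614 (minus strand) for *Ube2z*.
Ube2j1: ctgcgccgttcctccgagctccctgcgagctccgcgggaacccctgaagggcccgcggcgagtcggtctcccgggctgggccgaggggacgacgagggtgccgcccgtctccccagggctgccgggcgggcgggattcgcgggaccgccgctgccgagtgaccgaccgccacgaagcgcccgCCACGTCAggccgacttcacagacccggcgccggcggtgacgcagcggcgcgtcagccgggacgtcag
Ube2q1: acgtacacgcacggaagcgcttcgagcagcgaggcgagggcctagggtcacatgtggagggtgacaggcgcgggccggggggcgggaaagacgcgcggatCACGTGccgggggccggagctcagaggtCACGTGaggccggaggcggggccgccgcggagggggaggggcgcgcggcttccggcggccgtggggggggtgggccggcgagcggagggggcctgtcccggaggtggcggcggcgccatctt
Ube2z: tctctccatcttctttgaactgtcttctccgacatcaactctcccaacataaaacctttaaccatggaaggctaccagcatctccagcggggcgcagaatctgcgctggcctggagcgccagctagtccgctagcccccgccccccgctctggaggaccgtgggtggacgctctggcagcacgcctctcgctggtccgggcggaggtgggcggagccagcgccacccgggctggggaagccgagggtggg

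The capitals in the *Ube2j1* window are the UPRE motif TGACGTGG on the other strand, beginning 68 bases before the start site. UPRE is the element bound by the ER stress factor XBP1. The motif was present in 0.676% of all 32851 promoter windows (250 bases before to 50 after the start site), and *Ube2j1* was the only one of the 26 members with a window that held it. The capitals in the *Ube2q1* window are copies of the E-box CACGTG, the element of the clock factors and of MYC-type factors, which begin 150 and 122 bases before the start site. The E-box was present in 7.15% of all windows and in those of *Ube2q1* and *Ube2b*. The cAMP response element TGACGTCA was found in *Ube2b* and *Ube2h* (1.79% of all windows). The motifs ERSE (CCAAT and CCACG with 9 bases between them, 0.119% of windows), ERSE-II (ATTGG and CCACG with 1 base between them, 0.0365%) and CARE (TGATGCAA, 0.895%), which are elements of the ER and amino acid stress responses, were found in 0 of the 26 members. The *Ube2z* window held none of the 6. The UPRE match overlapped no other match. These are matches of letters and not measured binding sites, and the promoters of 8 members, *Ube2g2* among them, were not in the table used.

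The remaining members were ordered by role. Over all genes tested, 10.3% were called in AGRP neurons, and counts in groups this small are not read as results about a role. The ER-associated group is *Ube2j1*, *Ube2j2*, *Ube2g1* and *Ube2g2*, and in AGRP neurons all 4 had positive fold changes, from 0.60 to 0.99 with a median of 0.81, of which 1 passed the test. *Ube2j2* (ENSMUSG00000023286, chromosome 4, 155943831 to 155959604), the close relative of *Ube2j1*, averaged 19.7 ± 4.29 (SD, n = 5) in fed and 29.9 ± 7.73 normalized CPM (n = 6) in FD AGRP libraries (log2 fold change 0.60, standard error 0.28, q = 0.195). *Ube2g1*, another E2 that builds lysine 48 chains, averaged 34.4 ± 10.5 in fed and lay at 34.7 to 77.0 in FD libraries (log2 fold change 0.67, standard error 0.30, q = 0.176). For both genes the FD and fed ranges overlapped.

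The broad ubiquitin enzymes of the Ube2d and Ube2e kind work with a wide range of E3 ligases. Of the 6 tested, 4 had positive and 2 negative fold changes in AGRP neurons, from −0.29 (*Ube2e2*) to 0.39 (*Ube2d1*), and 0 passed the test by edgeR, limma-voom or DESeq2. At an unadjusted p under 0.05 there was *Ube2d3* alone (q = 0.101). *Ube2d3* was at 181 to 218 normalized CPM (median 193) in fed and at 166 to 292 (median 279) in FD AGRP libraries, a log2 fold change of 0.39 (standard error 0.15). Its 5 highest FD libraries lay between 263 and 292, above every fed library, and FD replicate 1 was below every fed library at 166. Without that library, *Ube2d3* was called as well (0.49, q = 0.0172).

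In the group of lysine 63 chains, the Rad6 class and DNA repair, 0 of 5 passed the test and the fold changes of *Ube2a*, *Ube2b*, *Ube2n* and *Ube2v2* were between −0.16 and 0.22. *Ube2n*, the enzyme that makes lysine 63 chains, was at 119 ± 12.0 (SD, n = 5) in fed and 119 ± 28.4 normalized CPM (n = 6) in FD AGRP libraries, with a 95% interval of the log2 fold change from −0.36 to 0.37. *Ube2b* went from 198 ± 36.4 to 177 ± 32.3 normalized CPM, a difference smaller than the SD of either group. Among the carriers of ubiquitin-like proteins, *Ube2f* had the largest positive fold change with 0.89 (standard error 0.37, q = 0.134), from 17.7 ± 9.78 to 32.8 ± 9.52 normalized CPM, and *Ube2m* and *Ube2l6* did not pass either. *Ube2l6* was between 0 and 6.06 normalized CPM in AGRP libraries, so its log2 fold change of −1.78 has a standard error of 1.35. Without FD replicate 3 it was −4.68 (standard error 1.47) and *Ube2l6* was called lower (q = 0.0424), on values that remained at a few reads. The E2 enzymes of the anaphase promoting complex, *Ube2c* and *Ube2s*, were both highest in FD AGRP replicate 2, at 7.37 and 35.6 normalized CPM. Their standard errors of 1.45 and 0.66 exceeded or approached their log2 fold changes of 1.25 and 0.89.

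Of the 9 other ubiquitin enzymes tested, 8 had positive fold changes in AGRP neurons and 2 of them, *Ube2q1* and *Ube2z*, passed the test. The share called was 10.3% over all genes tested and 17.2% over genes with a group mean over 20 CPM. *Ube2k* was at 286 ± 62.6 (SD, n = 6) in FD and 225 ± 41.6 normalized CPM (n = 5) in fed mice (log2 fold change 0.35, standard error 0.17, q = 0.219), which did not pass. *Ube2r2* averaged 167 in both states, with a log2 fold change of 0.00 (standard error 0.17). *Ube2h*, a less studied E2, was the only one of this group with a negative fold change, −0.29 (standard error 0.16, q = 0.315).

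**Figure D3:**
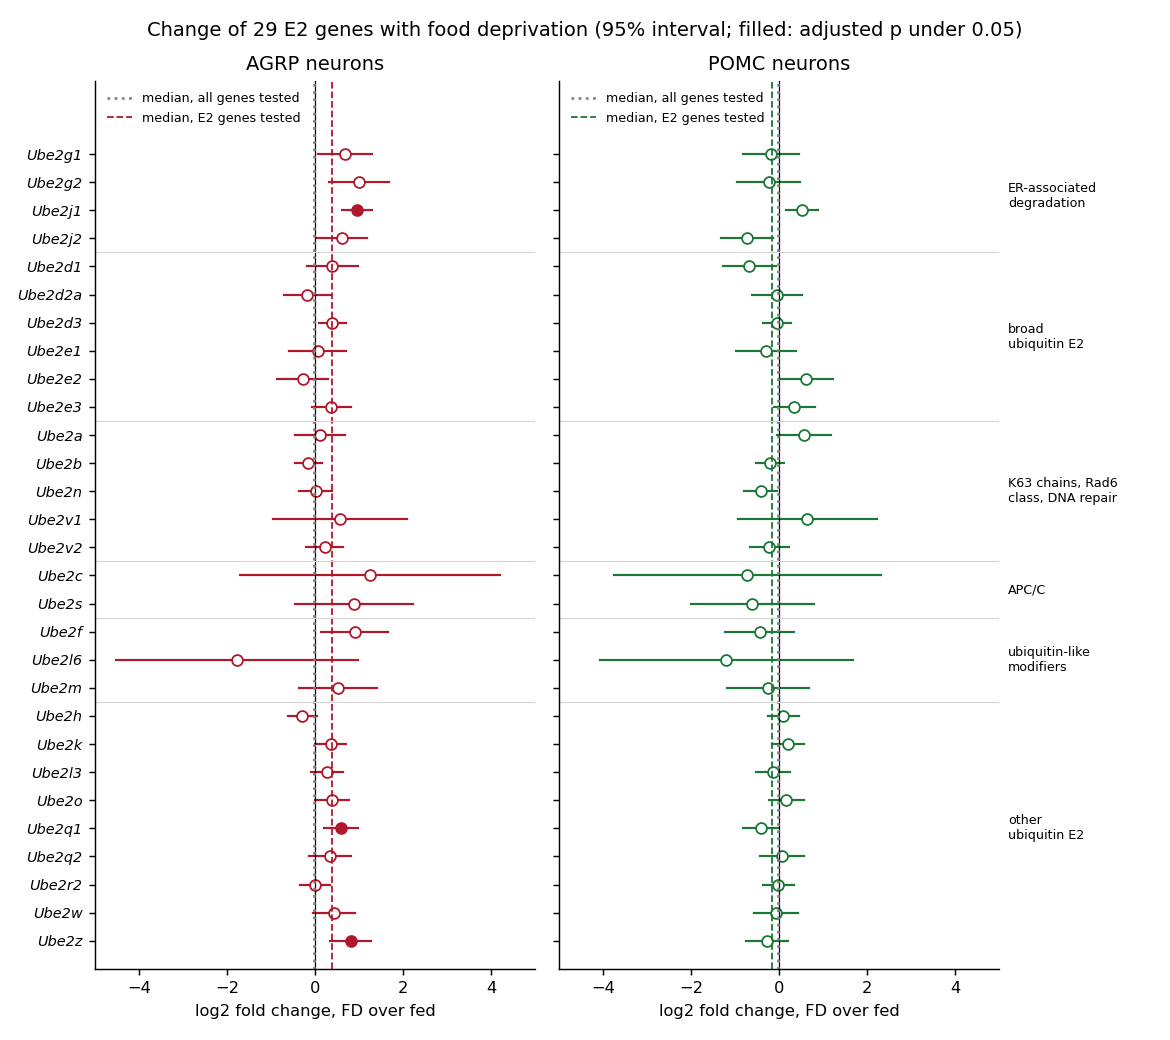
Log2 fold change, FD over fed, of 29 of the 30 E2 genes tested, with 95% intervals, in AGRP (left) and POMC neurons (right), grouped by role. Filled points passed the test, the dashed line is the median of all 30 members tested (0.37 in AGRP and −0.16 in POMC neurons), and the dotted line is the median of all genes tested.

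In POMC neurons, which restrain feeding where AGRP neurons promote it, 0 of the 30 members were called by edgeR, and likewise 0 by limma-voom and 0 by DESeq2. The background was low as well, at 0.375% of all genes tested by edgeR, 0.442% by limma-voom and 2.31% by DESeq2. At an unadjusted p under 0.05 there were 6 members, 2 of them higher in FD, against 12.2% of all genes tested. The median log2 fold change of the members was −0.16 with 10 higher and 20 lower. For all genes tested it was −0.02, with 48.2% higher.

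*Ube2j1* was at 241, 200, 203, 260 and 263 normalized CPM in fed and at 322, 292, 362, 315 and 382 in FD POMC libraries. Every FD library was higher than every fed library, as for 1.08% of all genes tested in this comparison. No other member was without overlap in either direction, against 2.35% of all genes tested. The log2 fold change of *Ube2j1* was 0.52 (standard error 0.17) with q = 0.179. Within the 1 µl spike-in set alone, with 3 FD and 3 fed mice, it was 0.43.

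For *Ube2g2* the fed POMC libraries held 38.6, 18.5, 16.7, 33.1 and 17.2 and the FD libraries 33.4, 17.9, 15.9, 15.2 and 22.4 normalized CPM. The groups overlapped almost fully, and the log2 fold change was −0.24 with a 95% interval from −0.95 to 0.47 (q = 0.856). *Ube2j2* held 49.5, 37.0, 32.8, 24.5 and 28.2 in fed and 26.0, 25.7, 18.6, 15.0 and 18.0 normalized CPM in FD libraries. Only 2 FD libraries reached into the fed range. The log2 fold change of −0.73 (standard error 0.29, q = 0.273) did not pass, and within the 1 µl set it was −0.28.

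*Ube2q1* was at 93.1, 110, 102, 95.5 and 143 in fed and at 69.9, 83.5, 105, 78.6 and 67.9 normalized CPM in FD POMC libraries. All FD libraries but replicate 3 lay below the fed range (log2 fold change −0.42, standard error 0.20, q = 0.374). *Ube2z* was at 122, 113, 89.4, 71.7 and 78.3 in fed and 58.1, 72.9, 113, 75.8 and 70.2 in FD libraries, with much overlap (log2 fold change −0.28, standard error 0.23, q = 0.684). Within the 1 µl set, the change of *Ube2q1* was −0.40 and that of *Ube2z* 0.03, so the lower *Ube2z* mean of FD mice was not seen among libraries of 1 set. *Ube2d1* was at 74.4 ± 17.5 in fed and 46.6 ± 20.2 normalized CPM in FD libraries (SD, n = 5 each; log2 fold change −0.68, standard error 0.29, q = 0.331). Within the 1 µl set its change was −1.01, with 28.2 to 39.4 in FD against 52.2 to 78.5 in fed libraries.

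Whether the 2 cell types changed differently was tested by the interaction of cell type and food deprivation, which is the AGRP change minus the POMC change. It uses the same libraries as both comparisons above and is not independent of them. Here 3 of the 30 members (10%) were called, all positive: *Ube2q1*, *Ube2z* and *Ube2j2*. Over all genes tested, 6.71% were called and 4.08% were called positive. Over genes with a group mean over 20 CPM these shares were 11.5% and 7.48%. The count by itself therefore does not set the family apart. The difference was 1.00 for *Ube2q1* (standard error 0.27, q = 0.0222), 1.09 for *Ube2z* (standard error 0.32, q = 0.0364) and 1.33 for *Ube2j2* (standard error 0.40, q = 0.0407). In each, the FD mean was higher than the fed mean in AGRP and lower in POMC libraries, although the POMC change alone passed the test for 0 of them and the AGRP change alone did not pass for *Ube2j2*. The median over the members was 0.42, compared with 0.01 over all genes tested and 0.10 over genes with a group mean over 20 CPM. Of the members 23 of 30 were positive, of all genes tested 50.3%, and of those over 20 CPM 55.6%.

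For *Ube2j1* the interaction was 0.42 with a 95% interval from −0.07 to 0.91 (q = 0.338). The rise in AGRP neurons was thus not shown to differ from the change in POMC neurons, even though only the former passed the test. For *Ube2g2* it was 1.24 with an interval from 0.25 to 2.22 (q = 0.130). The interaction of *Ube2q1* stayed under 0.05 with any 1 of the 21 libraries left out (0.0111 to 0.0492). That of *Ube2z* was over 0.05 in 11 of these fits and that of *Ube2j2* in 12 of them. With the spike-in set, which is unevenly spread over fed and FD POMC mice, as a block, *Ube2q1* was still called (0.89, q = 0.0378), whereas *Ube2z* (0.99, q = 0.0757) and *Ube2j2* (1.25, q = 0.0902) were not.

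**Figure D4:**
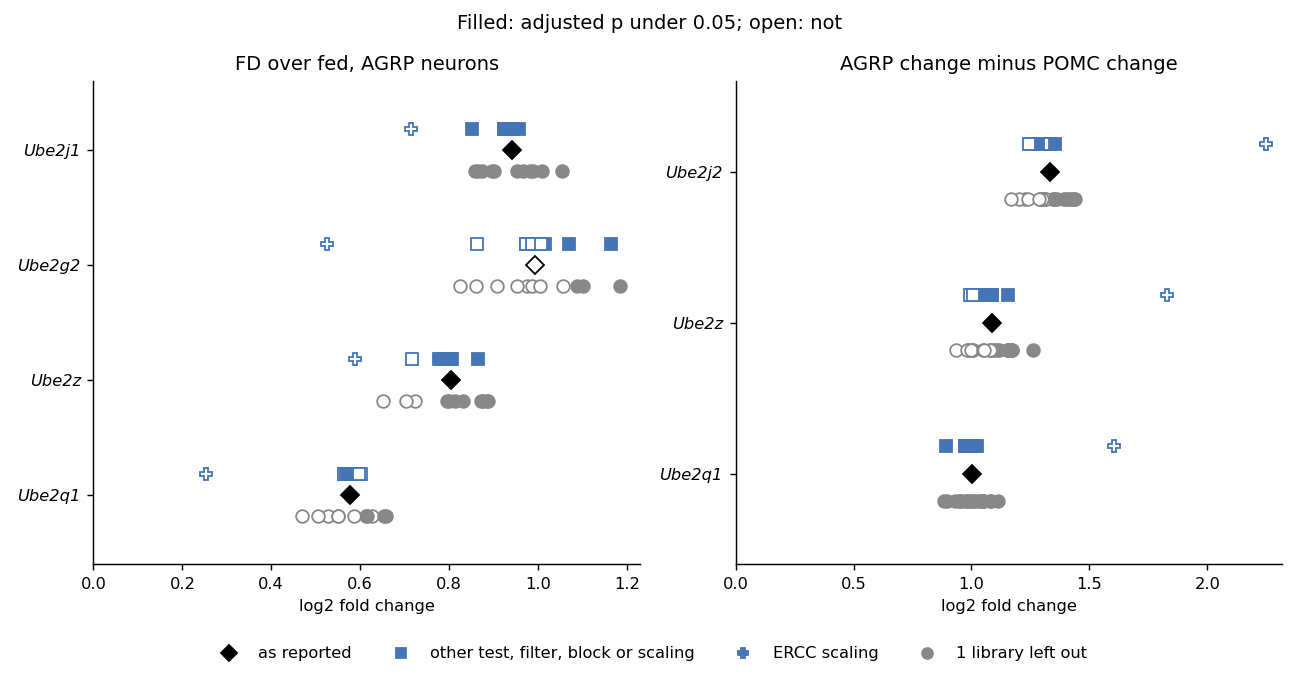
Log2 fold changes of the named genes under other tests, filters, blocks and scalings (squares, with a cross for scaling by ERCC counts, uncorrected for spike-in volume) and with 1 library left out (circles), beside the reported value (diamond). Filled symbols have an adjusted p under 0.05, and *Ube2j1* in AGRP neurons and *Ube2q1* in the interaction are filled in all fits but ERCC scaling.

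The cell types were also compared within each feeding state. In fed mice, 0 of the 30 members differed between AGRP and POMC neurons by edgeR and 0 by limma-voom, while DESeq2 called *Ube2j2*. The background was 7.57% of all genes tested by edgeR, 9.03% by limma-voom and 10.1% by DESeq2. At an unadjusted p under 0.05 there were 6 members, all lower in AGRP neurons, against 18.9% of all genes. Those with the smallest q were *Ube2j2* (log2 difference −0.80, standard error 0.29, q = 0.0934), *Ube2d1* (−0.79, standard error 0.29, q = 0.109), *Ube2q1* (−0.52, standard error 0.20, q = 0.114), *Ube2z* (−0.61, standard error 0.23, q = 0.117), *Ube2f* (−0.90, standard error 0.38, q = 0.177) and *Ube2v2* (−0.48, standard error 0.22, q = 0.205). With the spike-in set as a block, *Ube2d1* (−1.08, q = 0.00901) and *Ube2v2* (−0.64, q = 0.0468) were called. *Ube2q1* was the only member whose fed groups did not overlap, with 52.1 to 92.5 in AGRP against 93.1 to 143 normalized CPM in POMC libraries, compared with 8.93% of all genes tested. *Ube2j1* (−0.23, standard error 0.17, q = 0.537) and *Ube2g2* (−0.52, standard error 0.35, q = 0.460) were not called.

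In FD mice, 1 of the 30 members (3.33%) was called, against 18.6% of all genes tested. It was *Ube2e2* (ENSMUSG00000058317, chromosome 14, 18573577 to 18893776), which encodes a broad ubiquitin E2. It was at 120, 67.6, 77.3, 96.6 and 124 normalized CPM in FD POMC libraries and at 23.6 to 90.7 (median 56.0) in FD AGRP libraries. Of the 6 AGRP libraries, 5 lay below every POMC library (log2 difference −0.84, standard error 0.28, q = 0.0343). The 3 younger FD AGRP libraries averaged 38.0 and the 3 older ones 70.2 normalized CPM, and all POMC mice belonged to the older ages. With age cohort as a block the difference was −0.47 and was not called (q = 0.264), with the spike-in set as a block it was −0.72 (q = 0.0557), and it was over 0.05 as well without AGRP FD replicate 1 (0.0743) or 2 (0.0788) or POMC FD replicate 1 (0.0873), 4 (0.0547) or 5 (0.0919).

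*Ube2j1* did not differ detectably between FD AGRP and FD POMC neurons (log2 difference 0.19, 95% interval −0.15 to 0.53, q = 0.473), and on the TPM scale the group means were 315 ± 61.3 (SD, n = 6) and 317 ± 33.0 (n = 5). *Ube2g2* had a log2 difference of 0.71 (standard error 0.34, q = 0.147), which did not pass. The members with the next smallest q were *Ube2q1* (0.48, standard error 0.19, q = 0.0735), *Ube2d3* (0.37, standard error 0.15, q = 0.0873), *Ube2s* (1.55, standard error 0.67, q = 0.111) and *Ube2z* (0.48, standard error 0.22, q = 0.141). *Ube2s* is counted with few reads, between 1.34 and 35.6 normalized CPM in FD libraries of both cell types.

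Other genes of the ubiquitin relay were described beside the family. The E1 of most ubiquitin, *Uba1*, was at 640 normalized CPM in FD against 495 in fed AGRP neurons (log2 fold change 0.37, standard error 0.13, q = 0.0651), and *Uba6*, which charges *Ube2z*, at 101 against 107 (−0.08, standard error 0.19, q = 0.863). *Uba1* was called in the interaction (0.65, standard error 0.19, q = 0.0327). Of 4 genes that encode ubiquitin itself, 0 were called in either cell type by edgeR. Over all genes tested, 10.3% were called in AGRP and 0.375% in POMC neurons.

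Among 19 E3 and E4 ligases and other partners of the ER enzymes, 3 were called higher in FD AGRP neurons and 0 lower, with a median log2 fold change of 0.10, beside 5.87% called higher and a median of −0.02 over all genes tested. They were *Park2*, the ligase parkin (1.10, standard error 0.32, q = 0.0237), *Vcp*, the ATPase that pulls proteins out of the ER membrane (0.56, standard error 0.16, q = 0.0194), and *Os9*, a lectin that selects misfolded glycoproteins (0.61, standard error 0.19, q = 0.0389). The ligase *Syvn1* (0.74, standard error 0.27, q = 0.0820) and the E4 *Ube4b* (0.37, standard error 0.14, q = 0.106) came next. Among genes with a group mean over 20 CPM, 10.8% were called higher. The paper, from these same libraries, names *Park2*, *Vcp*, *Os9* and *Ube4b* as raised, and the list was chosen with this known. Its share thus cannot be weighed against that of unselected genes. *Aup1*, which recruits *Ube2g2*, was at 24.4 against 17.3 normalized CPM (0.50, standard error 0.37, q = 0.475).

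Of 12 deubiquitinases, 4 were called higher in FD AGRP neurons and 0 lower, with a median of 0.40. Over all genes tested, 5.87% were called higher and 4.43% lower, and 17.2% of those with a group mean over 20 CPM were called in either direction. These were *Psmd14*, a subunit of the proteasome lid (0.77, standard error 0.17, q = 0.00342), *Usp25* (1.26, standard error 0.34, q = 0.0143), *Usp9x* (0.47, standard error 0.13, q = 0.0197) and *Uchl1* (0.76, standard error 0.22, q = 0.0213). Of 9 genes with an E2 fold but another name, 0 were called higher and 1 lower in FD AGRP neurons, namely *Aktip* (−0.61, standard error 0.20, q = 0.0413), whereas *Cdc34*, the partner of cullin-RING ligases (0.98, standard error 0.46, q = 0.201), and *Ube2ql1* (0.67, standard error 0.30, q = 0.177) did not pass. In POMC neurons 0 genes of these 4 lists were called by edgeR.

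**Figure D5:**
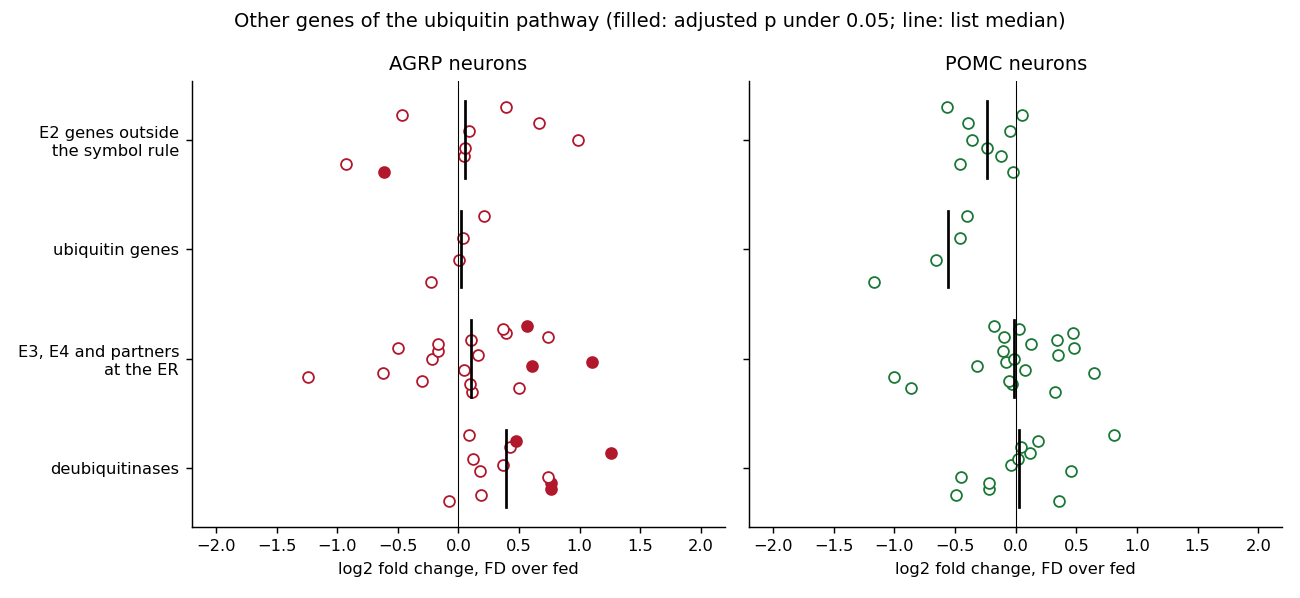
Log2 fold changes, FD over fed, of 4 lists of ubiquitin pathway genes (genes that encode ubiquitin, E2 genes of another name, E3 and E4 ligases and partners at the ER, and deubiquitinases) in AGRP (left) and POMC neurons (right), with a line at each list's median. Filled points passed the test, 8 of them in AGRP neurons (7 higher and 1 lower) and 0 in POMC neurons.

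Reads that fit more than 1 place in the genome were not counted, and counting ignored strand. In the GENCODE M21 transcripts, *Ube2j1*, *Ube2q1*, *Ube2z* and *Ube2e2* shared 0% of their windows of 100 bases with transcripts of other genes, *Ube2g2* 2.61% and *Ube2j2* 3.92%. The share was over 10% for 5 members, namely *Ube2v1* (58.0%), *Ube2h* (30.4%), *Ube2e1* (14.6%), *Ube2q2* (10.5%) and *Ube2l3*, whose counts are the least certain.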

How the data were processed

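RNA-Seq was analysed for 21 libraries in 4 groups, with each library from 1 mouse and groups and replicate numbers taken from the sample labels. The authors amplified the RNA with NuGEN Ovation, without molecular identifiers, trimmed reads (cutadapt 1.7.1), removed abundant sequences (Bowtie2 2.1.0), mapped to mm10 (STAR 2.4.0i) and deposited raw counts of uniquely mapped reads on 35266 Gencode genes (HTSeq 0.6.1p1, unstranded), beside 92 spike-in and 5 summary entries that were left out here. Of these summary entries, reads in no gene and ambiguous reads together made up 27.2% to 56.3% of their sum with the gene counts. The authors also deposited TPM, made from these counts by exon length and scaled to the same total in each library. Depth was 9822298 to 37663979 gene counts, and the floor of 3 counts covers counting error only.

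Genes over 1 CPM in at least 3 libraries (16513) were scaled by TMM and fitted over 4 groups with the quasi-likelihood test of edgeR 4.0.16 (R 4.3.3), with two-sided tests and Benjamini-Hochberg adjustment over all genes. The filter, TMM and the adjustment are those of the study's methods, whose limma-voom test (limma 3.58.1) was an alternative, as were DESeq2 1.42.0, RLE factors, no filter, the compared groups alone, blocks for replicate number, spike-in set and age cohort, sorted cells as a covariate, ERCC scaling and leaving out each library. The ratio of mean TPM and the values within age cohorts or the 1 µl spike-in set were added after the values were seen. ERCC scaling used the ERCC counts without correction for the volume of spike-in added. Intervals are at 95%.

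Members were chosen by symbol, and they and all lists were chosen with earlier results of these data known. Full values are given for members with an adjusted p under 0.05 in FD against fed of either cell type or in the interaction, for those among the 6 smallest adjusted p of either comparison of cell types, and for *Ube2j1* and *Ube2g2* throughout. The 5 highest and 5 lowest members by mean TPM are named, as are up to 5 genes of smallest q per pathway list, and further genes were named after their values were seen. Counts and medians cover all 34 or 30 members, but 1 tested member and the count of E1 enzymes are not reported here on their own. Same-numbered libraries are different mice and share only a number. Promoters came from RefSeq (GRCm38.p6) and matched 26 of 34 members. Figures were drawn with matplotlib 3.10.9 and sequences searched with Python 3.11.15.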

Additional observations from a re-analysis of the deposited data

Results flagged for a closer look

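*Ube2j2*, *Ube2q1* and *Ube2z* are listed because their change with food deprivation differed between the cell types by the test of the interaction. The AGRP change minus the POMC change was 1.33 (log2) for *Ube2j2*, 1.00 for *Ube2q1* and 1.09 for *Ube2z*, and in each the AGRP mean was higher and the POMC mean lower in FD mice. For *Ube2z*, the POMC part was 0.03 within the 1 µl spike-in set.

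*Ube2d3* is listed because AGRP FD replicate 1 stood apart from the rest of its group, at 166 normalized CPM, while the next lowest library was at 263. It was the only such library in 44 groups of libraries examined (11 genes in 4 groups), by Dixon's test at its 95% critical value, which by its construction marks about 1 in 20 groups by chance. The same library was the lowest of its group for *Ube2j1*, *Ube2q1*, *Ube2j2* and *Ube2e2* as well.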

How the results depend on the processing

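The count of E2 genes called in FD against fed AGRP neurons (3) was 2 to 4 under limma-voom, DESeq2, RLE, no filter, the compared groups alone and each block, 1 with sorted cells as a covariate and 0 under ERCC scaling. The study's criteria (adjusted p under 0.05, absolute log2 fold change over 1, a group mean over 20 CPM) were met by *Ube2g2* with limma-voom. Applied to the edgeR fit, they brought the count to 0. With 1 library left out it was 1 to 5, being 1 without AGRP fed replicate 4 or AGRP FD replicate 2 or 4, where *Ube2j1* alone was called, and 5 without AGRP FD replicate 1. In POMC neurons the count was 0 in every fit run. Between fed cell types (0) it was 1 by DESeq2 and 2 (*Ube2d1* and *Ube2v2*) with the spike-in set as a block. Between FD cell types (1) it was 0 with the spike-in set or age cohort as a block, with sorted cells as a covariate or under ERCC scaling, and 0 to 2 with 1 library left out (2 without AGRP FD replicate 1 or POMC FD replicate 3, 0 without AGRP FD replicate 2 or POMC FD replicate 4 or 5). In the interaction (3) it was 1 with the spike-in set as a block or sorted cells as a covariate, 0 under ERCC scaling, and 1 to 3 with 1 library left out (1, *Ube2q1*, without AGRP fed replicate 1, 3 or 4, AGRP FD replicate 2, POMC fed replicate 1 or 2, or POMC FD replicate 4 or 5). A fit of the compared groups alone cannot be made for the interaction.

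ERCC scaling used the ERCC counts uncorrected for the volume of spike-in added. It moved the all-gene median on the log2 scale to −0.18 in AGRP and −1.08 in POMC neurons, where the E2 medians were 0.11 and −1.26, and it called 1 gene of all tested in AGRP and 0 in POMC neurons. Under it *Ube2j1* in POMC neurons reversed to −0.55 and *Ube2e2* between FD cell types to 0.19, neither past the threshold. POMC FD replicates 4 and 5, of the 10 µl set, held 1152518 and 1812282 ERCC counts. The other POMC FD libraries held 112143 to 279865 and the POMC fed libraries 83690 to 179786. Volume and food deprivation thus cannot be told apart under this scaling in POMC neurons, and its fold changes are not read as results. As a ratio of mean TPM, the E2 median was 0.12 in AGRP neurons with 19 of 30 higher, against −0.27 for all genes, and −0.03 in POMC neurons with 14 of 30 higher, against 0.09 for all genes.

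Same-numbered libraries did not deviate together: the correlation of their deviations was over 0.1 for 1 pair of fed libraries only (0.118) and otherwise −0.183 to 0.058. With the replicate number as a block, the counts were 3 in AGRP neurons (*Ube2g2* in place of *Ube2q1*), 0 in POMC neurons, 0 between fed cell types, 1 between FD cell types and 2 in the interaction (without *Ube2j2*). Among single genes, *Ube2z* in the interaction was over 0.05 without AGRP fed replicate 1, 3 or 4, AGRP FD replicate 2 or 4, POMC fed replicate 1 or 2, or POMC FD replicate 1, 2, 4 or 5 (0.0569 to 0.0742), and *Ube2j2* without AGRP fed replicate 1, 3, 4 or 5, AGRP FD replicate 2, 3 or 6, POMC fed replicate 1 or 2, or POMC FD replicate 3, 4 or 5 (0.0534 to 0.0915). Members at a few reads, such as *Ube2c*, *Ube2l6* and *Ube2v1*, have standard errors over 0.7, so changes of about that size were not detectable in them. The causes of these shifts were not tested.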
